A study of Mus musculus with 6 samples.

Results

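The aminoacyl-tRNA synthetase genes of the mouse were examined in RNA sequencing of pancreas from 3 PARP2 KO and 3 WT mice. Members were taken by gene symbol from a list of 45 names covering the synthetases of the cytosol and those of the mitochondria. Of these names, 38 were found among the 29721 genes of the count table, and all 38 were among the 17652 genes expressed highly enough to be tested. The cytosolic class had 20 genes and the mitochondrial class, whose symbols end in 2, had 17. Tarsl2, a further threonyl-tRNA synthetase of the cytosol, was kept apart because the 2 in its symbol does not mark a mitochondrial enzyme. The genes Gars and Kars also give rise to the mitochondrial glycine and lysine enzymes and were kept in the cytosolic class.

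Aminoacyl-tRNA synthetases join each amino acid to its transfer RNAs and so set the meaning of the genetic code. Most eukaryotes keep separate nuclear genes for the enzymes that serve ribosomes of the cytosol and for those imported into mitochondria, where a small set of respiratory chain subunits is made. Several cytosolic enzymes sit together in a multisynthetase complex held by scaffold proteins, and many cytosolic synthetase genes are known targets of ATF4, the transcription factor of the amino acid response. The acinar cell of the pancreas, which secretes digestive enzymes, is known for a very high rate of protein synthesis.

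The PARP2 KO group held 3 Ela-myc mice aged 3 months with a knockout of Parp2, a poly(ADP-ribose) polymerase of the DNA damage response, and the WT group held 3 Ela-myc mice of the same age with wild-type Parp2. Ela-myc mice express Myc from the elastase promoter, which is active in acinar cells, so every animal in both groups carried this transgene. Each animal gave 1 library, prepared from pancreas RNA with a stranded mRNA kit; the label protocol speaks of tumour samples while the tissue label reads pancreas. The labels used here do not describe the knockout allele further.

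Library totals were between 28105021 and 32055565 counts. Values per library are given in the order of replicates 1, 2 and 3, which are names only. Parp2 itself was measured at 14.4, 12.4 and 13.6 CPM (counts scaled to library size after TMM scaling, a correction for differences in library composition) in the PARP2 KO libraries, against 40.5, 36.4 and 37.5 CPM in the WT libraries (log2 fold change -1.50, SE 0.097, adjusted p = 0.00201). The acinar content of the libraries differed: 18 digestive enzyme genes took 3.71%, 12.7% and 0.0160% of all counts in PARP2 KO replicates 1, 2 and 3, against 24.2%, 26.1% and 20.2% in WT replicates 1, 2 and 3 (p = 0.10 by an exact two-sided permutation test, which can go no lower with 3 libraries a group). Their summed level ranged over 132 to 121680 CPM in PARP2 KO libraries and over 209780 to 314710 CPM in WT libraries, and none of the 18 was at 0 counts in any library. None of the 18 passed edgeR's test across all genes in either direction, at an unadjusted p under 0.05 or after adjustment, nor did any with limma on the deposited log2 values; DESeq2 and limma-voom each called 2 lower. By these shares PARP2 KO replicate 3 was nearly without acinar transcripts despite its tissue label, and counts of called genes are given with and without it. All 7 fat, all 7 T cell, all 6 B cell and all 5 endothelial markers were higher in PARP2 KO, all 7 proliferation markers were lower, and 3 of 6 duct, 3 of 6 fibroblast, 2 of 5 acinar factor and 1 of 7 islet markers were lower; of 6 macrophage markers 1 was lower and 1 higher. Over all genes tested, edgeR called 25.0% lower and 28.0% higher. Called or not, log2 fold changes ran from -3.87 to -2.48 for islet markers, -3.90 to -2.11 for acinar factors and -2.88 to -2.14 for duct markers. They ran from -1.21 to 0.12 for fibroblast and from -0.52 to 1.07 for macrophage markers. Fat markers summed to between 4277 and 5156 CPM in PARP2 KO libraries and between 289 and 715 CPM in WT libraries. The part of cell composition in the synthetase results was not tested, and in bulk tissue fewer cells of a type and less RNA per cell cannot be told apart. By sex-linked transcripts, PARP2 KO animals were 1 male and 2 females and WT animals were 2 males and 1 female.

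Promoter sequences are shown for the 5 cytosolic synthetase genes whose RefSeq window held the composite element through which ATF4, paired with a C/EBP protein, is known to act, since the cytosolic class and Atf4 were both lower in PARP2 KO. Each sequence is from GRCm38.p6 and runs on the gene's own strand from 150 bases before the annotated start to 25 bases after it. Capitals mark matches to TGATGNAA, read on either strand, and to the E-box CACGTG, the palindromic sequence that MYC with MAX and several other factors can bind. No match overlapped another.
Aars (chr8:111033692-111033867, plus strand): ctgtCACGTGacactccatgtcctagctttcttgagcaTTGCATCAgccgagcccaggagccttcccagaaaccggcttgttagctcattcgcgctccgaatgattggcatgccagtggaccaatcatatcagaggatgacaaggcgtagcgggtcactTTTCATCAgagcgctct
Gars (chr6:55037851-55038026, plus strand): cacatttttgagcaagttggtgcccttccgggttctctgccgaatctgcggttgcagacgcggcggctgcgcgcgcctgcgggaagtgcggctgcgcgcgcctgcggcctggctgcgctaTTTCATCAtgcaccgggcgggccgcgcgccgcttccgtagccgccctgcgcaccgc
Iars (chr13:49681980-49682155, plus strand): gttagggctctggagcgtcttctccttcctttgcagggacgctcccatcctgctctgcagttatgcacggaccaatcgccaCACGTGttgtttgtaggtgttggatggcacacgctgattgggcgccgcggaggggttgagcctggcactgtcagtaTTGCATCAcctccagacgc
Tars (chr15:11399633-11399808, minus strand): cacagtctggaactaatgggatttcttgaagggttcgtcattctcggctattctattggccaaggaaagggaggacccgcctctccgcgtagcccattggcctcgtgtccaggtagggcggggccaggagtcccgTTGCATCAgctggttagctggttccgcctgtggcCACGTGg
Yars (chr4:129189753-129189928, plus strand): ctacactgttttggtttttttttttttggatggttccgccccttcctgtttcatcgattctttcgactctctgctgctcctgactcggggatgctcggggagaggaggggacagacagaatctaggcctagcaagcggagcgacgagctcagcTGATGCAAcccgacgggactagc

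RefSeq windows of 300 bases, from 250 before to 50 after the start, were at hand for 27 of the 38 members. TGATGNAA occurred in 5 of 12 cytosolic genes with a window and in 0 of 14 mitochondrial genes, against 4.51% of all 27025 genes with a RefSeq window. These 27025 genes had 32851 windows, were not limited to genes of the count table, and counted as matched if any window matched. Aars had 2 such matches, 1 upstream and 1 downstream of the start. The only match in Iars and the only match in Yars also lay downstream of the start. CACGTG occurred in 4 of the 12 cytosolic genes (Aars, Farsb, Iars and Tars) and in 1 of the 14 mitochondrial genes (Ears2), against 8.09% of all genes with a window. Both sequences occurred together in 3 of the 12, against 0.237% of all genes with a window. All 5 genes with TGATGNAA were among the 7 genes with a window that are often listed as raised through ATF4 in mouse fibroblasts. A match describes the letters in the window and is not evidence of binding. The 5 genes shown spanned the range of the class: Gars and Iars had log2 fold changes of -1.28 and -1.19, Tars and Yars -0.96 and -0.85, and Aars, with the most matches, -0.48.

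The cytosolic synthetase genes were lower in PARP2 KO pancreas without exception. All 20 passed the test in that direction, with fold changes from -1.28 (Gars) to -0.45 (Dars) on the log2 scale and adjusted p-values of 0.00293 to 0.0291 (edgeR's quasi-likelihood test, Benjamini-Hochberg adjustment over 17652 genes, threshold 0.05). None was higher, at an unadjusted p under 0.05 or with DESeq2, limma-voom or limma on the deposited log2 values either. Over all genes tested, 25.0% were lower and 28.0% were higher in PARP2 KO by the same rule. The median cytosolic gene had a log2 fold change of -0.90, a level 46.2% lower in PARP2 KO, while the median over all genes tested was 0.02. Every PARP2 KO library lay below every WT library for each of the 20 genes, a pattern seen in 33.7% of all genes tested, and 5 of the 20 had a log2 fold change of -1 or lower, against 14.9% of all genes tested.

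The count was 18 of 20 without PARP2 KO replicate 3 and 16 of 20 without PARP2 KO replicate 1, beside 20.4% and 14.1% of all genes tested. When libraries were scaled by their totals alone, which raised the median over all genes by 0.40 on the log2 scale, all 20 genes were still lower in PARP2 KO and 16 passed the test, with a cytosolic median of -0.50 beside a median over all genes of 0.42.

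**Figure D1:**
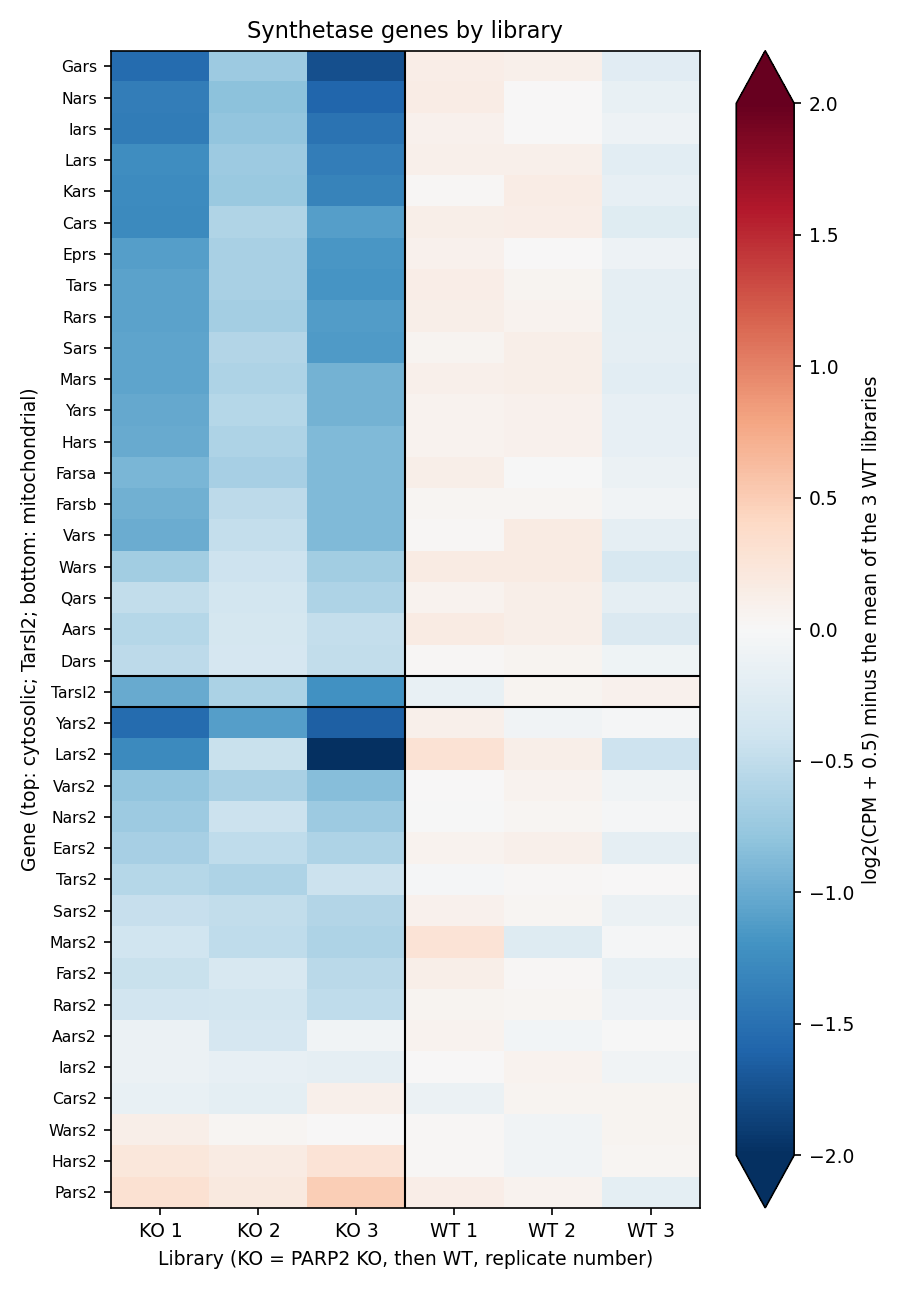
Level of each of 37 synthetase genes in each library, as log2(CPM + 0.5) minus the mean of the 3 WT libraries (colour scale), with the 3 PARP2 KO libraries left of the 3 WT libraries; cytosolic genes are at the top, Tarsl2 below them and mitochondrial genes at the bottom. All 20 cytosolic rows are below the WT level in the 3 PARP2 KO columns, least so in PARP2 KO replicate 2.

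Gars, whose product charges glycine tRNA in both compartments, had the largest cytosolic fold change. It was measured at 89.7, 158 and 76.9 CPM in PARP2 KO libraries, against 287, 280.4 and 224 CPM in WT libraries, a level 58.9% lower in PARP2 KO (log2 fold change -1.28, SE 0.29, adjusted p = 0.0132). PARP2 KO replicate 2 stood well above the other PARP2 KO libraries and below every WT library. Without PARP2 KO replicate 1 the Gars log2 fold change was -1.15 and its adjusted p 0.0569. Nars, for asparagine, was measured at 133, 196 and 116 CPM in PARP2 KO libraries, against 384, 350.4 and 312 CPM in WT libraries (log2 fold change -1.23, SE 0.21, adjusted p = 0.00535). Iars, for isoleucine, was measured at 78.4, 119.8 and 74.2 CPM in PARP2 KO libraries, against 219.6, 208 and 193 CPM in WT libraries (log2 fold change -1.19, SE 0.20, adjusted p = 0.00489). Neither gene's groups overlapped, and both kept PARP2 KO replicate 2 as the highest of the PARP2 KO libraries.

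Kars, which like Gars supplies both compartments and whose product is a member of the multisynthetase complex, had 94.5, 136 and 89.2 CPM in PARP2 KO libraries and 229.8, 251 and 203 CPM in WT libraries (log2 fold change -1.10, SE 0.18, adjusted p = 0.00503). Lars, the leucine enzyme of the complex that also acts as a leucine sensor upstream of mTORC1, had 72.3, 103 and 65.6 CPM in PARP2 KO libraries and 184, 184 and 148 CPM in WT libraries (log2 fold change -1.10, SE 0.19, adjusted p = 0.00561). Eprs encodes a fused enzyme for glutamate and proline, and among the members of the complex it had the most counts. Its level was 144, 197 and 138 CPM in PARP2 KO libraries, against 330.1, 312.7 and 289 CPM in WT libraries (log2 fold change -0.96, SE 0.16, adjusted p = 0.00474). Rars, for arginine, had 59.3, 77.9 and 57.6 CPM in PARP2 KO libraries and 137, 132 and 109 CPM in WT libraries (log2 fold change -0.96, SE 0.15, adjusted p = 0.00439). Mars, for methionine, had 56.1, 76.3 and 60.8 CPM in PARP2 KO libraries and 126, 127 and 102 CPM in WT libraries (log2 fold change -0.88, SE 0.15, adjusted p = 0.00528). The Mars gene shares 68 exon bases with Ddit3 on the opposite strand, and the strand setting of the counting is not given in the sources used here; Ddit3 did not pass the test (log2 fold change -0.45, adjusted p = 0.098).

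Among enzymes that work outside the complex, Farsa and Farsb, the subunits of phenylalanyl-tRNA synthetase, changed alike. Farsa had 35.7, 42.9 and 36.9 CPM in PARP2 KO libraries, against 74.0, 67.9 and 62.7 CPM in WT libraries, and the smallest adjusted p of the class (log2 fold change -0.83, SE 0.11, adjusted p = 0.00293). Farsb had 48.6, 66.5 and 51.6 CPM in PARP2 KO libraries, against 98.0, 97.5 and 90.6 CPM in WT libraries (log2 fold change -0.78, SE 0.13, adjusted p = 0.00513). The difference between subunits in log2 fold change was smaller than either gene's standard error. Hars, for histidine, had 48.8, 64.2 and 52.9 CPM in PARP2 KO libraries and 103, 105 and 88.0 CPM in WT libraries (log2 fold change -0.84, SE 0.13, adjusted p = 0.00414). Tars, for threonine, had 61.9, 83.1 and 57.5 CPM in PARP2 KO libraries and 143, 135 and 115 CPM in WT libraries (log2 fold change -0.96, SE 0.16, adjusted p = 0.00527). Yars, for tyrosine, had 36.0, 49.7 and 38.0 CPM in PARP2 KO libraries and 78.1, 78.5 and 66.1 CPM in WT libraries (log2 fold change -0.85, SE 0.15, adjusted p = 0.00559). In all of these genes the lowest WT library was replicate 3 and the highest PARP2 KO library was replicate 2, an order shared by all 20 cytosolic genes. How many of all genes tested share this order was not computed.

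Tarsl2 moved with the cytosolic class although its level was low. It had 8.92, 11.7 and 7.74 CPM in PARP2 KO libraries, against 16.7, 19.3 and 19.6 CPM in WT libraries (log2 fold change -0.97, SE 0.18, adjusted p = 0.00648). Its annotation shares 120 exon bases with Tm2d3 on the same strand, so some reads could belong to either gene.

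The smallest cytosolic changes belonged to Dars, Aars, Qars and Wars. Dars, for aspartate, had 81.3, 91.9 and 83.1 CPM in PARP2 KO libraries, against 119, 122 and 109.6 CPM in WT libraries, a level 26.8% lower in PARP2 KO (log2 fold change -0.45, SE 0.085, adjusted p = 0.00707). Aars, for alanine, had a log2 fold change of -0.48 (adjusted p = 0.0291) and Qars, for glutamine, had -0.49 (adjusted p = 0.0136). These 4 genes were the ones that no longer passed when libraries were scaled by their totals alone, with log2 fold changes of -0.05 for Dars, -0.07 for Aars, -0.09 for Qars and -0.21 for Wars. Aars and Wars also lost their calls without PARP2 KO replicate 1, PARP2 KO replicate 3, WT replicate 1 or WT replicate 2, with adjusted p-values of 0.0685 to 0.0995 for Aars and 0.0583 to 0.0775 for Wars, and Qars without PARP2 KO replicate 1 (adjusted p = 0.0540).

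Wars, for tryptophan, is set apart by its known induction by interferon gamma. It had 66.9, 80.8 and 66.9 CPM in PARP2 KO libraries, against 122, 121 and 86.0 CPM in WT libraries (log2 fold change -0.61, SE 0.16, adjusted p = 0.0203), and WT replicate 3 was much the lowest WT library. The interferon gamma genes went the other way in the same animals: 11 of 11 were higher in PARP2 KO, beside 28.0% of all genes tested. Their median log2 fold change was 1.42. Without PARP2 KO replicate 3, 10 of 11 were higher, beside 4225 of all 17988 genes tested. Psmb9, an immunoproteasome subunit, had 85.5, 77.8 and 94.2 CPM in PARP2 KO libraries and 29.9, 27.8 and 26.7 CPM in WT libraries (log2 fold change 1.61, adjusted p = 0.00201). Irf1, a transcription factor of the pathway, had 175, 133 and 158 CPM in PARP2 KO libraries and 57.3, 56.3 and 60.6 CPM in WT libraries (log2 fold change 1.42, adjusted p = 0.00201). Psmb8, another immunoproteasome subunit, and Cxcl9, a chemokine that attracts T cells, had log2 fold changes of 1.47 and 1.59, each with adjusted p = 0.00201. These genes are also expressed by the immune cells whose markers were higher in PARP2 KO: T cell markers summed to between 351 and 821 CPM in PARP2 KO libraries and between 50.4 and 137 CPM in WT libraries.

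**Figure D2:**
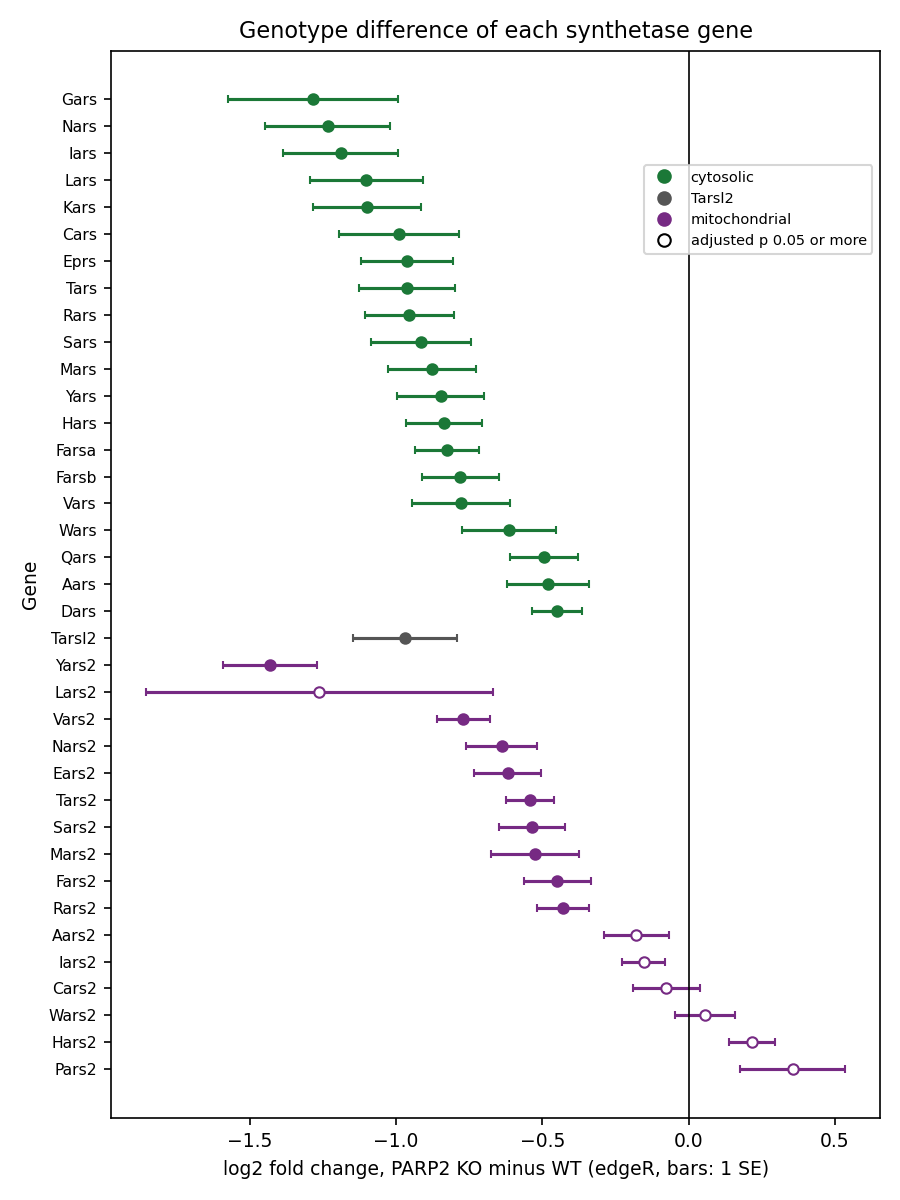
Log2 fold change (PARP2 KO minus WT) of each of 37 synthetase genes with 1 SE, coloured by class, with open points for genes whose adjusted p was 0.05 or more. All 20 cytosolic genes lie left of 0, from -1.28 to -0.45, while mitochondrial genes spread from -1.43 to 0.36. Scaling by library totals alone turns Aars2, Cars2 and Iars2 to the right of 0 and moves the median over all genes to 0.42.

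Within the cytosolic class, groupings by role differed little. The genes for the 8 enzymes of the multisynthetase complex were all lower in PARP2 KO (median log2 fold change -0.96), and the 12 outside it were all lower with a median of -0.84. The 9 class I enzymes and the 10 class II enzymes, which carry unrelated catalytic folds, had medians of -0.88 and -0.87. The 13 genes often listed as raised through ATF4 in mouse fibroblasts had a median of -0.96 and the other 7 a median of -0.83. In each grouping the ranges of fold changes overlapped widely, and no difference between groupings was tested.

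The genes for the scaffold proteins of the complex were lower as well, 3 of 3, with and without PARP2 KO replicate 3. Over all genes tested, 25.0% were lower, and 20.4% without PARP2 KO replicate 3. Aimp2 had 14.9, 19.3 and 15.2 CPM in PARP2 KO libraries and 39.1, 37.7 and 38.1 CPM in WT libraries (log2 fold change -1.22, SE 0.12, adjusted p = 0.0021). Eef1e1, also called Aimp3, had 15.4, 17.6 and 13.1 CPM in PARP2 KO libraries and 37.1, 29.2 and 31.4 CPM in WT libraries (log2 fold change -1.08, SE 0.15, adjusted p = 0.00319). Aimp1 had 36.1, 47.3 and 35.5 CPM in PARP2 KO libraries and 67.9, 73.0 and 62.2 CPM in WT libraries (log2 fold change -0.77, SE 0.14, adjusted p = 0.00587). For all 3 genes every PARP2 KO library lay below every WT library, a pattern seen in 33.7% of all genes tested.

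Genes for tRNA export, delivery of charged tRNA and elongation in the cytosol were lower too, 7 of 7 (median log2 fold change -1.06), beside 25.0% of all genes tested. Without PARP2 KO replicate 3 the count was 5 of 7, beside 20.4% of all genes tested. Xpot, the exporter of tRNA from the nucleus, had 59.2, 97.9 and 53.0 CPM in PARP2 KO libraries, against 197.3, 195.9 and 175.7 CPM in WT libraries (log2 fold change -1.44, SE 0.24, adjusted p = 0.00522). Eef1d and Eef1g, subunits of the exchange factor that recharges elongation factor 1A with GTP, had log2 fold changes of -0.97 and -1.07 (adjusted p = 0.00344 and 0.00631). Eef1a2, the form of elongation factor 1A known from muscle, neurons and islets, had 0.216, 0.284 and 0.334 CPM in PARP2 KO libraries, against 9.20, 1.16 and 9.99 CPM in WT libraries (log2 fold change -4.59, SE 0.87, adjusted p = 0.00777). Islet markers summed to between 1.62 and 596 CPM in PARP2 KO libraries and between 1378 and 3349 CPM in WT libraries. The highest sum was in WT replicate 2, the WT library lowest in Eef1a2, but single markers differed. Among WT libraries, Ins1, Ins2, Gcg, Iapp and Chga were highest in replicate 2, while Sst and Ppy were lowest there, as Eef1a2 was. The part of islet content was not tested.

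The amino acid response, the programme through which ATF4 raises synthetases, transporters and serine synthesis, was lower in most of its genes. Of 21 genes, 14 were lower and 2 were higher in PARP2 KO, beside 25.0% lower and 28.0% higher of all genes tested. The median log2 fold change of the 21 genes was -1.18. Without PARP2 KO replicate 3, 13 were lower, beside 20.4% of all genes tested. Without PARP2 KO replicate 1, 8 were lower, beside 14.1% of all genes tested. Atf4 had 123, 144 and 106 CPM in PARP2 KO libraries, against 273, 250.4 and 198 CPM in WT libraries (log2 fold change -0.95, SE 0.17, adjusted p = 0.00549). Shmt2, the mitochondrial enzyme that makes glycine from serine, had 54.7, 77.0 and 50.7 CPM in PARP2 KO libraries, against 226, 212 and 181 CPM in WT libraries (log2 fold change -1.76, SE 0.19, adjusted p = 0.00213). Psat1, an enzyme of serine synthesis, had 80.1, 95.9 and 61.8 CPM in PARP2 KO libraries and 220.0, 228 and 183 CPM in WT libraries (log2 fold change -1.41, SE 0.18, adjusted p = 0.00278). Slc7a1, a transporter of arginine and lysine, had 60.4, 84.0 and 53.6 CPM in PARP2 KO libraries and 199.6, 189.6 and 166 CPM in WT libraries (log2 fold change -1.49, SE 0.18, adjusted p = 0.0026). In all 4 of these genes every PARP2 KO library lay below every WT library, as in 33.7% of all genes tested, and PARP2 KO replicate 2 was the highest PARP2 KO library. The same library was the highest for all 20 cytosolic synthetases, but also for all 18 digestive enzyme genes and all 6 fibroblast markers. So it was for 6 of 6 duct, 5 of 5 acinar factor, 6 of 7 islet and 5 of 6 macrophage markers. It was the highest for 2 of 7 proliferation, 1 of 7 fat, 0 of 7 T cell, 0 of 6 B cell and 0 of 5 endothelial markers. The share of all genes tested with this library highest was not computed.

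The 2 genes of the response that were higher, named after their values were seen, were Slc7a11, the cystine transporter, and Ppp1r15a, which helps to reverse the phosphorylation of eIF2 alpha. Slc7a11 had 43.1, 16.5 and 33.0 CPM in PARP2 KO libraries and 9.71, 15.8 and 10.3 CPM in WT libraries (log2 fold change 1.37, SE 0.39, adjusted p = 0.0277), and Ppp1r15a had a log2 fold change of 0.40 (adjusted p = 0.0236). Slc7a11 lost its call without PARP2 KO replicate 1, PARP2 KO replicate 3, WT replicate 1 or WT replicate 3 (adjusted p 0.0571 to 0.0876), and Ppp1r15a without PARP2 KO replicate 1 or any single WT library (adjusted p 0.0514 to 0.0753).

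The mitochondrial synthetases were split. Of 17 genes, 10 were lower in PARP2 KO and none was higher by the adjusted p, beside 25.0% lower and 28.0% higher of all genes tested. Hars2 was higher at an unadjusted p under 0.05. DESeq2, limma-voom and limma on the deposited log2 values called none higher. The median log2 fold change was -0.52, a level 30.5% lower in PARP2 KO. Without PARP2 KO replicate 3, 8 of 17 were lower, beside 20.4% of all genes tested. When libraries were scaled by their totals alone the median was -0.12, 3 genes remained lower, Yars2 and Vars2 among them, and Hars2, Pars2 and Wars2 were higher. With that scaling 2160 of all 17652 genes tested were lower and 7475 were higher, and their median was 0.42. Every PARP2 KO library lay below every WT library for 13 of the 17 genes, and above every WT library for 2, Hars2 and Pars2, against 33.7% and 34.4% of all genes tested.

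Yars2, the mitochondrial tyrosine enzyme, had the largest fold change and the smallest adjusted p of all 38 members. It had 14.0, 19.1 and 13.1 CPM in PARP2 KO libraries, against 44.2, 39.3 and 40.6 CPM in WT libraries, a level 62.9% lower in PARP2 KO (log2 fold change -1.43, SE 0.16, adjusted p = 0.00228). Vars2, for valine, had 27.8, 30.9 and 26.6 CPM in PARP2 KO libraries and 48.6, 50.7 and 46.2 CPM in WT libraries (log2 fold change -0.77, SE 0.091, adjusted p = 0.00241). In both genes the groups were separate, with PARP2 KO replicate 2 the highest PARP2 KO library. Both passed the test under every alternative that was run.

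Tars2, for threonine, had 39.0, 37.8 and 43.0 CPM in PARP2 KO libraries and 57.2, 58.8 and 58.4 CPM in WT libraries (log2 fold change -0.54, SE 0.081, adjusted p = 0.00374). Ears2, for glutamate, had 13.2, 14.7 and 13.7 CPM in PARP2 KO libraries and 22.4, 22.8 and 18.8 CPM in WT libraries (log2 fold change -0.62, SE 0.11, adjusted p = 0.00664). Nars2, for asparagine, had 11.4, 14.1 and 11.3 CPM in PARP2 KO libraries and 18.9, 19.5 and 18.8 CPM in WT libraries (log2 fold change -0.64, SE 0.12, adjusted p = 0.00729). Each of these genes had tight groups that did not overlap. Rars2, for arginine, had 24.7, 25.0 and 22.8 CPM in PARP2 KO libraries and 33.9, 33.4 and 30.3 CPM in WT libraries (log2 fold change -0.43, SE 0.089, adjusted p = 0.00925). Sars2, for serine, had 10.9, 10.6 and 9.97 CPM in PARP2 KO libraries and 16.2, 15.6 and 13.9 CPM in WT libraries (log2 fold change -0.54, SE 0.11, adjusted p = 0.00995). Mars2 for methionine and Fars2 for phenylalanine, also called lower, had log2 fold changes of -0.52 and -0.45 (adjusted p = 0.0278 and 0.0184). Mars2 lost its call without PARP2 KO replicate 1, PARP2 KO replicate 3, WT replicate 1 or WT replicate 3 (adjusted p 0.0534 to 0.0654), and Fars2 without PARP2 KO replicate 1, PARP2 KO replicate 3, WT replicate 1 or WT replicate 2 (adjusted p 0.0524 to 0.0620).

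The 7 mitochondrial genes without a call included the enzymes for histidine, proline, tryptophan, cysteine, isoleucine, alanine and leucine. Hars2 had 37.1, 35.5 and 38.3 CPM in PARP2 KO libraries, against 32.3, 30.3 and 32.8 CPM in WT libraries (log2 fold change 0.22, SE 0.079, adjusted p = 0.0574), with every PARP2 KO library above every WT library. Pars2, the gene with the lowest WT level per kilobase in the class, had 6.98, 6.44 and 8.04 CPM in PARP2 KO libraries and 6.14, 5.85 and 4.79 CPM in WT libraries (log2 fold change 0.36, SE 0.18, adjusted p = 0.134). Wars2 and Cars2 had log2 fold changes of 0.06 and -0.08 with overlapping groups (adjusted p = 0.656 and 0.593). Iars2 and Aars2 had -0.15 and -0.18 (adjusted p = 0.117 and 0.208). Scaling by library totals alone turned Cars2, Iars2 and Aars2 to positive values, beside a median over all genes of 0.42. Hars2 and Hars lie head to head on opposite strands and share 195 exon bases, and Iars2 and Cars2 share 2034 and 422 exon bases with Rab3gap2 and Naxd on the opposite strand.

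Lars2, the mitochondrial leucine enzyme (chr9:123366927-123462666, GRCm38), stood apart in level. It had 455, 806 and 148 CPM in PARP2 KO libraries, against 1348, 1199.5 and 829.7 CPM in WT libraries, with separate groups but a wide spread in PARP2 KO (log2 fold change -1.26, SE 0.59, adjusted p = 0.118). It supplied 52.4%, 66.1% and 26.4% of all mitochondrial synthetase counts in PARP2 KO replicates 1, 2 and 3, against 70.4%, 68.7% and 61.1% in WT replicates 1, 2 and 3. Per kilobase of exon it reached 102 RPKM on average in WT, while no other mitochondrial synthetase exceeded 13.1 RPKM there. DESeq2 called it lower (adjusted p = 0.0200), as did the edgeR fit without PARP2 KO replicate 2 (log2 fold change -1.90, adjusted p = 0.0374), and without PARP2 KO replicate 3 its log2 fold change was -0.82 (adjusted p = 0.0944).

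Reads of ribosomal RNA are known to be assigned to the mouse Lars2 locus, so genes known to collect such reads were set beside it. Gm26917 had 99.7, 326 and 59.3 CPM in PARP2 KO libraries, against 658, 557 and 421 CPM in WT libraries (log2 fold change -1.75, adjusted p = 0.0664), and its 6 libraries ranked in the same order as those of Lars2, an order also found in 7 of the 20 cytosolic genes, Gars, Nars and Iars among them, and in Fars2 and Rars2. Gm42418 had 1692, 3596 and 2795 CPM in PARP2 KO libraries, against 8803, 5058 and 3693 CPM in WT libraries (log2 fold change -1.12, adjusted p = 0.0641), with another order within PARP2 KO. The ribosomal RNA genes of the mitochondrial genome, mt-Rnr1 and mt-Rnr2, had log2 fold changes of -0.15 and -0.04 with overlapping groups (adjusted p = 0.490 and 0.902), and PARP2 KO replicate 3 was their highest PARP2 KO library, where it was the lowest for Lars2. None of the 4 tested genes of this kind passed edgeR's adjusted threshold; Gm26917 and Gm42418 were lower at an unadjusted p under 0.05, DESeq2 called 2 of the 4 lower and limma-voom and limma on the deposited log2 values 1 each. The part of ribosomal RNA reads in the Lars2 level was not tested.

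**Figure D3:**
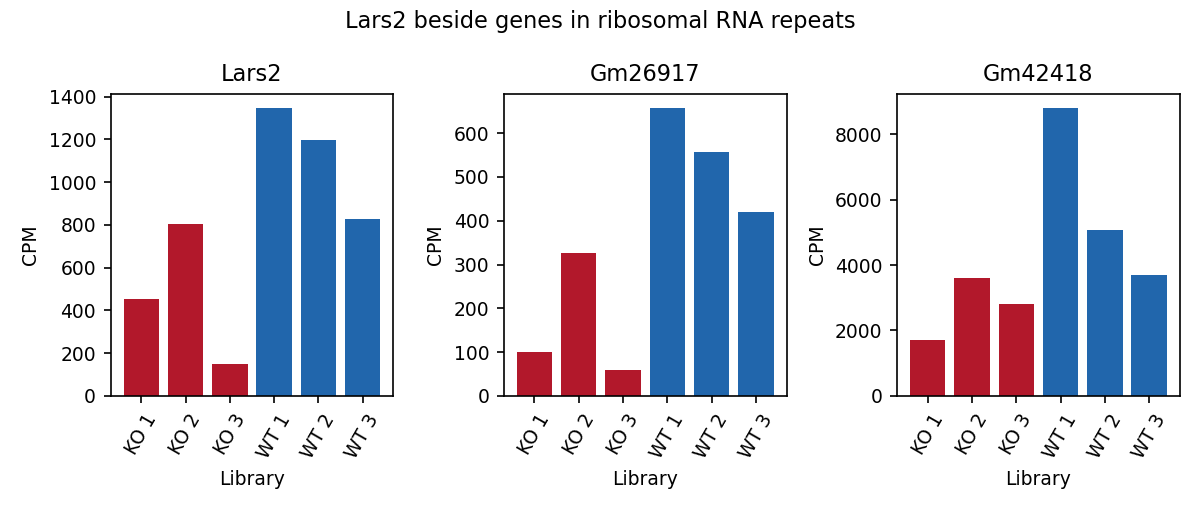
CPM of Lars2 beside the ribosomal RNA read collectors Gm26917 and Gm42418 in each library (bars, linear axes from 0), the 3 PARP2 KO libraries left of the 3 WT libraries. PARP2 KO replicate 3 is the lowest library for Lars2 and for Gm26917, at 148 and 59.3 CPM, and PARP2 KO replicate 1 is the lowest for Gm42418, at 1692 CPM.

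Among partners of the mitochondrial enzymes, Gatc, Tsfm and Tufm were lower, 3 of 6 genes with and without PARP2 KO replicate 3, beside 25.0% of all genes tested. Gatc, the small subunit of the amidotransferase that completes glutamine tRNA, had 17.9, 24.1 and 17.8 CPM in PARP2 KO libraries and 38.7, 39.2 and 35.0 CPM in WT libraries (log2 fold change -0.92, SE 0.14, adjusted p = 0.00416). Tsfm, the mitochondrial elongation factor Ts, had 11.7, 15.1 and 15.2 CPM in PARP2 KO libraries and 26.3, 26.4 and 22.7 CPM in WT libraries (log2 fold change -0.85, SE 0.14, adjusted p = 0.00464). Tufm, the mitochondrial elongation factor Tu that Tsfm recharges, had 6.06, 7.45 and 5.81 CPM in PARP2 KO libraries and 11.3, 9.97 and 10.9 CPM in WT libraries (log2 fold change -0.74, SE 0.15, adjusted p = 0.00983); it lost its call when libraries were scaled by their totals (adjusted p = 0.129). The subunits that join Gatc in the amidotransferase did not pass the test: Gatb had 15.9, 16.2 and 19.0 CPM in PARP2 KO libraries and 18.0, 16.2 and 15.6 CPM in WT libraries, with a log2 fold change of 0.04, and Qrsl1 had 0.05 (adjusted p = 0.785 and 0.738). Mtfmt, which formylates the initiator methionyl tRNA of mitochondria, had a log2 fold change of 0.09 (adjusted p = 0.62). Scaled by library totals alone, Gatb and Qrsl1 were higher in PARP2 KO, with log2 fold changes of 0.45 and 0.46. The median over all genes with that scaling was 0.42, so these values lay near the shift of genes at large.

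Set side by side, the cytosolic class was lowered further than the mitochondrial class in every PARP2 KO library. Relative to the WT mean, the cytosolic genes averaged -1.03, -0.60 and -1.05 on the log2 scale in PARP2 KO replicates 1, 2 and 3, against 0.09, 0.08 and -0.18 in WT replicates 1, 2 and 3. The mitochondrial genes without Lars2 averaged -0.41, -0.38 and -0.41 in PARP2 KO replicates 1, 2 and 3, against 0.06, -0.0027 and -0.06 in WT replicates 1, 2 and 3. Among PARP2 KO libraries the cytosolic mean was closest to WT in replicate 2, which kept 12.7% of its counts in digestive enzymes. The mitochondrial mean without Lars2, left out after seeing the data, was nearly level across PARP2 KO libraries that held between 0.0160% and 12.7%. The part of digestive enzyme content in either mean was not tested. With Lars2 included, the 17 mitochondrial genes averaged -0.46, -0.39 and -0.55 in PARP2 KO replicates 1, 2 and 3, against 0.07, 0.0046 and -0.08 in WT replicates 1, 2 and 3, and were then also closest to WT in PARP2 KO replicate 2 and lowest in PARP2 KO replicate 3. The cytosolic minus mitochondrial mean level, over all 20 and all 17 genes, was 1.51, 1.87 and 1.59 in PARP2 KO replicates 1, 2 and 3, against 2.10, 2.16 and 1.98 in WT replicates 1, 2 and 3, which gives 1.65 ± 0.19 in PARP2 KO and 2.08 ± 0.091 in WT (SD, n = 3 each). The genotype difference of -0.42 exceeded the pooled SD of 0.15; it was -0.39 without PARP2 KO replicate 3 and -0.49 without Lars2, but -0.05 when medians of levels replaced means over members. No p-value was computed, since members were chosen with results known.

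**Figure D4:**
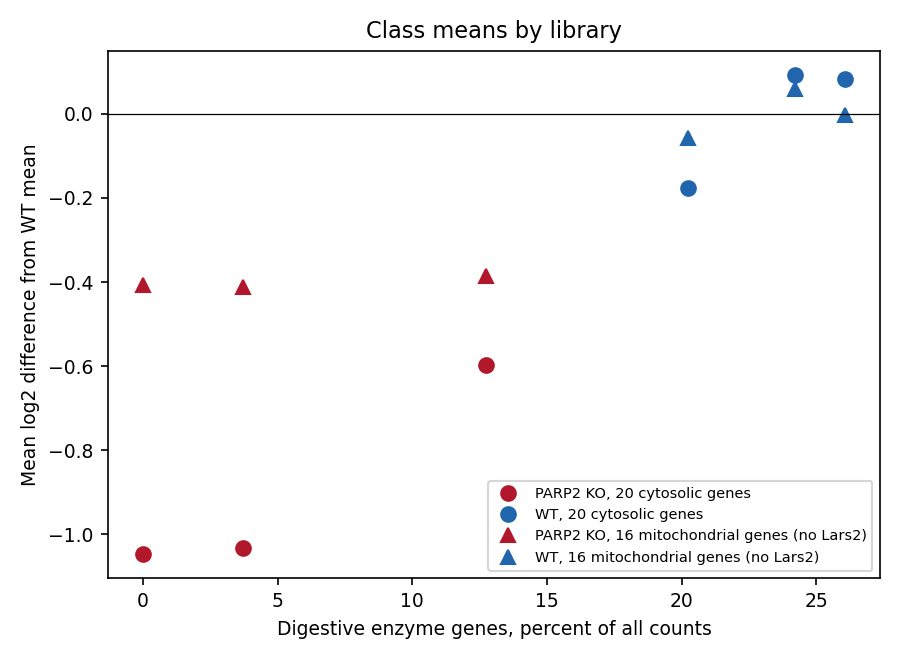
Mean log2 difference from the WT mean for the cytosolic genes and for the mitochondrial genes without Lars2 in each library (points), against the percent of counts in 18 digestive enzyme genes (horizontal axis). Cytosolic means of PARP2 KO libraries run from -1.05 to -0.60 and mitochondrial means from -0.41 to -0.38 under TMM scaling. Under scaling by library totals Aars2, Cars2 and Iars2 of the mitochondrial class change sign, while the median over all genes moves to 0.42.

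As shares of all counts, which amount to scaling by library totals and so move with the share that digestive enzymes take, cytosolic synthetases made up 0.187%, 0.226% and 0.187% in PARP2 KO replicates 1, 2 and 3, against 0.290%, 0.290% and 0.283% in WT replicates 1, 2 and 3. Wilson 95% intervals for these shares were all narrower than the gap between genotypes, with an upper bound of 0.227% for the highest PARP2 KO library and a lower bound of 0.281% for the lowest WT library, covering counting error only. The mitochondrial genes without Lars2 made up 0.0491%, 0.0434% and 0.04999% in PARP2 KO replicates 1, 2 and 3, against 0.0467%, 0.0452% and 0.0509% in WT replicates 1, 2 and 3, and these ranges overlapped. Per kilobase of exon, the median cytosolic gene was at 19.1 RPKM in PARP2 KO and 33.3 RPKM in WT, and the median mitochondrial gene at 3.41 RPKM in PARP2 KO and 4.60 RPKM in WT.

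Enzymes for the same amino acid were compared within each library for 16 pairs, as the RPKM ratio of the cytosolic to the mitochondrial gene. In 14 pairs the cytosolic gene had the lower log2 fold change, and in 10 of these the ratio was lower in every PARP2 KO library than in every WT library. Eprs stands in both the proline and the glutamate pair, which were among the 10, so the pairs were not all separate. Among single genes, 33.7% of all genes tested had every PARP2 KO library below every WT library. The like share for ratios of other gene pairs was not computed. The ratios overlapped between genotypes for alanine, methionine, threonine and valine, and the fold changes of Vars and Vars2 differed by only -0.0066 on the log2 scale. The proline pair Eprs and Pars2 differed most, with ratios of 3.52, 5.23 and 2.94 in PARP2 KO libraries, against 9.18, 9.14 and 10.3 in WT libraries. The histidine pair Hars and Hars2 had ratios of 2.30, 3.16 and 2.41 in PARP2 KO libraries, against 5.59, 6.04 and 4.69 in WT libraries, and the isoleucine pair Iars and Iars2 had 1.27, 1.997 and 1.25 in PARP2 KO libraries, against 3.26, 2.97 and 3.03 in WT libraries. These 3 pairs are the ones with the largest differences in fold change.

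The exceptions were leucine and tyrosine. For tyrosine, Yars and Yars2 had ratios of 1.37, 1.38 and 1.54 in PARP2 KO libraries, against 0.935, 1.06 and 0.861 in WT libraries, and the mitochondrial gene Yars2 was thus the one lowered further. The tyrosine ratio was higher in every PARP2 KO library than in every WT library. For leucine, the pair rests on Lars2 and its wide spread, with ratios of 0.328, 0.263 and 0.916 in PARP2 KO libraries, against 0.282, 0.317 and 0.369 in WT libraries.

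**Figure D5:**
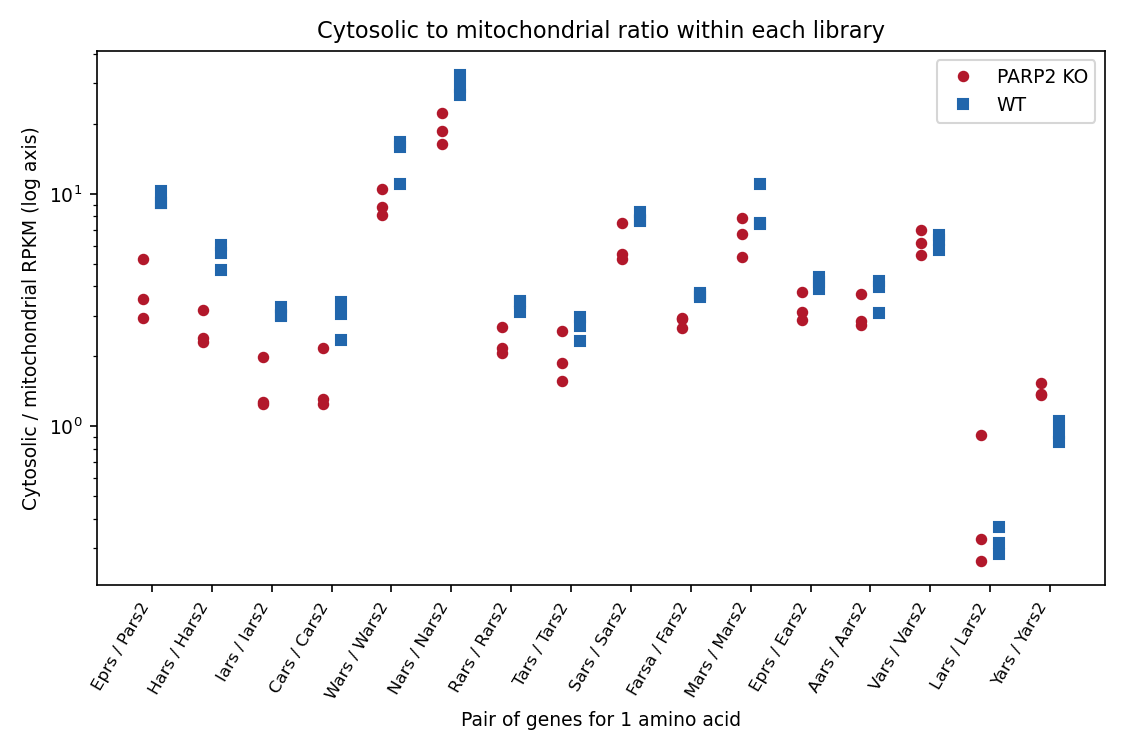
RPKM ratio of the cytosolic to the mitochondrial gene for 16 pairs that serve 1 amino acid (log axis), with the 3 PARP2 KO libraries as points left of the 3 WT libraries. Ratios are lower in PARP2 KO for Eprs/Pars2, Hars/Hars2 and Iars/Iars2 and higher for Yars/Yars2; ratios within a library do not depend on scaling between libraries.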

How the data were processed

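RNA of pancreas from 6 Ela-myc mice was sequenced, 3 PARP2 KO and 3 WT. The authors deposited whole-number read counts per gene, not normalised, and log2 values that matched log2 of the counts over DESeq2 size factors plus 1 within 5.2e-14. FastQC 0.11.5, STAR 2.5.3a, DESeq2 1.28.1 and GRCm38 (mm10) are named per the submitters' processing notes; for the counting program, its strand setting and its annotation release nothing is stated in the sources used here, so counts of overlapping genes are uncertain.

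Counts were tested with edgeR 4.0.16 in R 4.3.3 (robust quasi-likelihood F-test, TMM scaling, default expression filter, genotype as the only term, Benjamini-Hochberg adjustment over 17652 genes, threshold 0.05). The procedure was also run on simulated counts with few genes changed, in equal numbers up and down. That run does not cover the many changed genes and the shift in digestive enzyme content of these data. A log2 fold change is PARP2 KO minus WT, and its SE is its size over the square root of F. Class means use log2(CPM + 0.5). RPKM uses exon lengths of the GENCODE mouse annotation, and promoters come from RefSeq (GRCm38.p6). Libraries of the same genotype always differed by more than sampling noise (chi-square per degree of freedom 29.1 to 461, over genes with at least 20 counts). Replicate numbers follow accession order and pair nothing.

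The members and lists were chosen with earlier results of these data known. The values of 1 mitochondrial gene are not reported here; it is kept in class counts, medians and means. Values per library are given for the 12 cytosolic genes and 7 of the 8 mitochondrial genes with the smallest p, the extremes of each class, Gars, Kars, Tarsl2, Wars and Lars2; partner genes named are the scaffolds, the mitochondrial partners and up to 4 called genes with the smallest p in each other list. Alternatives were DESeq2 1.42.0, limma-voom and limma 3.58.1 on the deposited log2 values, other scalings and filters, sex or digestive enzyme level as a covariate, and leaving out each library. For the class difference, leaving out Lars2 or Gars and Kars and using medians were chosen after seeing the data.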

Additional observations from a re-analysis of the deposited data

How the results depend on the processing

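All 20 cytosolic genes kept a negative log2 fold change under every alternative, and 20 were called lower under DESeq2, DESeq2 size factors, limma-voom, limma on the deposited log2 values, TMM without digestive enzyme genes and both other filters. The count was 16 with library totals as the only scaling, 16 with digestive enzyme level as a covariate, 18 with sex as a covariate and 16 to 20 when 1 library was left out. The 10 mitochondrial genes called lower became 3 with library totals, 6 with the digestive enzyme covariate, 11 with DESeq2 and 8 to 11 when 1 library was left out. The digestive enzyme covariate ended the calls of Aars, Qars, Vars, Wars, Fars2, Mars2, Rars2 and Sars2. Their log2 fold changes stayed negative at -0.44, -0.37, -0.64, -0.51, -0.35, -0.45, -0.36 and -0.48 in that order. With this covariate the cytosolic median was -0.75 beside -0.90 without it, and Lars2 had -0.37. Digestive enzyme shares did not overlap between PARP2 KO (0.0160% to 12.7%) and WT (20.2% to 26.1%). The covariate therefore cannot separate enzyme content from genotype, and the fit with it is no adjustment for acinar content. Mitochondrial genes called higher numbered 3 with library totals, and 1 (Hars2) with TMM without digestive enzyme genes and with at least 10 counts required in every library. Over all genes, 2160 were lower and 7475 higher with library totals, against 4415 and 4938 with TMM, so that 77.6% of calls were higher instead of 52.8%; with the digestive enzyme covariate 2612 were lower and 3251 higher, and with 1 library left out 2543 to 5032 were lower. With library totals, Aars2, Cars2 and Iars2 turned to log2 fold changes of 0.23, 0.33 and 0.25, below the median over all genes of 0.42. Among uncalled partners, Gatb turned to -0.093 with the digestive enzyme covariate, and with 1 library left out values ranged from -0.031 to 0.10 for Gatb, from -0.012 to 0.14 for Qrsl1 and from -0.011 to 0.16 for Mtfmt. The cytosolic minus mitochondrial difference of -0.42 was -0.35 to -0.53 with 1 library left out, -0.39 without Gars and Kars and -0.047 with medians of levels, which follow other genes than means do; the median deviation from the WT mean gave -0.42. No paired analysis was possible because the labels give no replicate numbers.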

Other observations

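Of 6 genes related to the synthetases by sequence or by handling of special charged tRNAs, 2 were lower in PARP2 KO by edgeR's adjusted p, beside 25.0% of all genes tested, with none higher by edgeR at an unadjusted p under 0.05, by DESeq2 or by limma. Pstk, the kinase that prepares seryl-tRNA for selenocysteine, had 10.4, 11.9 and 11.3 CPM in PARP2 KO libraries, against 18.5, 22.0 and 18.9 CPM in WT libraries (log2 fold change -0.82, SE 0.12, adjusted p = 0.00343). Sepsecs, which completes the same selenocysteine step, did not pass the test and had a log2 fold change of 0.17 (adjusted p = 0.201). Dtd1, which removes D-amino acids from tRNA, had 14.0, 17.7 and 13.2 CPM in PARP2 KO libraries, against 28.5, 32.0 and 23.3 CPM in WT libraries (log2 fold change -0.90, SE 0.17, adjusted p = 0.00667), and its relative Dtd2 had a log2 fold change of -0.39 (adjusted p = 0.0987).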
